A study of Mus musculus with 3 samples.

Results

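The peaks described here are the narrowest entries in a list of c-FOS binding sites from mouse basal cell carcinoma cells: 1613 of 15011 listed peaks, or 10.7%, had the smallest width in the list. They were chosen by that width alone, which is 98 bp as the end position minus the start position (99 bp if both positions are counted). The remaining 13398 peaks are called wider peaks below. The list comes from chromatin immunoprecipitation followed by sequencing (ChIP-seq) in ASZ001, a cell line established from mouse basal cell carcinoma, with 2 c-FOS ChIP samples and 1 input sample without antibody. All 3 samples carried the active Ras mutant RasV12 and an shRNA that lowers the TGF-beta receptor TGFbR1, were treated with Dox (doxycycline) and 4OHT (4-hydroxytamoxifen), and were collected on day 6 of induction. The study was set in an induced change from basal to squamous carcinoma, and no group without Ras, shRNA or treatment was analysed here. Which agent acts on which construct, the promoters that drive them and whether the ChIP samples came from separate cultures are not stated in the labels used here.

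c-FOS is a leucine-zipper protein that binds DNA as a dimer with a JUN protein. The dimer is called AP-1, and the DNA word it is best known for is TGANTCA. Fos is an immediate early gene that Ras and MAP kinase signalling switches on, and in the epidermis AP-1 is known for its part in the differentiation and stress response of keratinocytes. A peak is a stretch of the genome where a peak caller, here MACS2, found more ChIP reads than background. Peak callers commonly drop stretches below a least length, and the setting used for this list is not stated in the labels. Whether 98 bp is such a least length was not tested. No mm9 sequence or annotation was used, so no peak was searched for the AP-1 word or assigned to a gene. Cell markers cannot be checked in a list of positions, and the ChIP samples cannot be told apart in it.

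The smallest width stood far above every other width in the list. The next 25 widths, from 99 to 123 bp, each held between 89 and 120 peaks, with a mean of 105 ± 9.01 (SD over widths). The 1613 peaks at 98 bp were 15.3 times that mean, and the next commonest width, 123 bp, held 120 peaks. Together the 98 bp peaks covered 158 kb, or 5.57% of the 2.84 Mb listed. Since width chose these peaks, the counts describe the rule and carry no test.

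**Figure D1:**
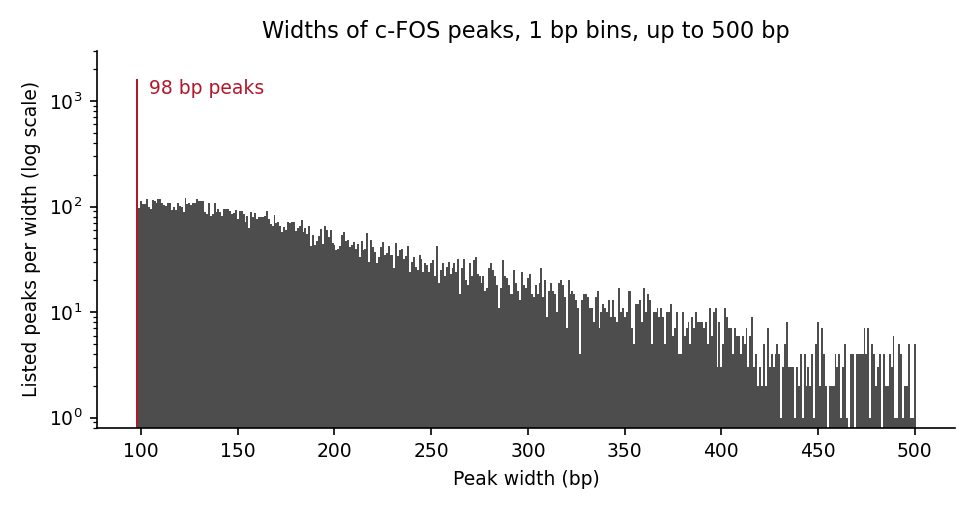
Number of listed c-FOS peaks (vertical axis, log scale) at each width in bp (horizontal axis, 1 bp bins up to 500 bp), with the 98 bp peaks in red. The red bar at 98 bp stands at 1613 peaks, whereas the widths from 99 to 123 bp hold 89 to 120 peaks each.

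Just outside the rule, 96 peaks measured 99 bp and 112 measured 100 bp. Gaps are distances from the edge of a peak to the edge of the nearest other listed peak. The median gap was 14.0 kb for both the 98 bp and the 99 bp peaks and 15.7 kb at 100 bp. A neighbour within 1 kb was found for 19.5% of the peaks at 98 bp, 18.8% at 99 bp and 18.8% at 100 bp. At 101, 102 and 103 bp the shares were 21.0%, 28.6% and 26.1% and the median gaps 15.2, 12.6 and 10.3 kb. Each of these single widths rests on 96 to 119 peaks, and each Wilson 95% interval spans over 10 percentage points, for instance 20.8 to 37.8% at 102 bp.

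The 98 bp peaks had a close neighbour less often than the wider peaks as a whole. Of the 1613, 314 or 19.5% (Wilson 95% interval 17.6 to 21.5%) had another listed peak within 1 kb, against 3417 or 25.5% of the wider peaks (24.8 to 26.2%) and 24.9% of all listed peaks. The difference was -6.04 percentage points (Newcombe 95% interval -8.04 to -3.90). Within 10 kb the share was 43.3% for the 98 bp peaks, 49.4% for the wider peaks and 48.7% for the whole list. With 1 list there is no replicate error. The intervals cover counting error and take each peak as independent, although the peaks of a close pair count each other, so no p-value was computed.

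The median gap was 14.0 kb for the 98 bp peaks (95% interval from order statistics 12.3 to 16.5 kb) and 10.3 kb for the wider peaks (9.85 to 10.7 kb), a ratio of 1.36. The quartiles of the gap were 2.11 and 53.2 kb for the 98 bp peaks and 0.926 and 39.7 kb for the wider peaks. The 2 distributions overlapped widely, and the smallest gap was 76 bp in both. The largest gap was 3.38 Mb among the 98 bp peaks and 31.4 Mb among the wider peaks. At the far end, 241 of the 98 bp peaks, or 14.9% (Wilson 95% interval 13.3 to 16.8%), had no neighbour within 100 kb. Among the wider peaks that share was 11.6% (11.0 to 12.1%), and over the whole list 11.9%.

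**Figure D2:**
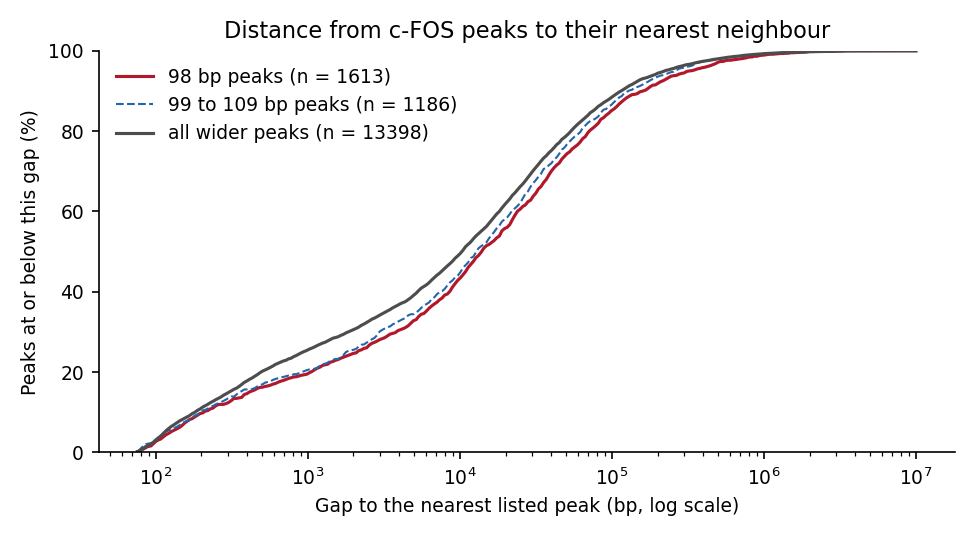
Cumulative share of peaks in percent (vertical axis) against the gap to the nearest listed peak in bp (horizontal axis, log scale) for the 98 bp peaks, the peaks of 99 to 109 bp and all wider peaks. At 1 kb the curves stand at 19.5%, 20.6% and 25.5%, and to the right of 10 kb the curve of the 99 to 109 bp peaks lies between the other two over much of its course.

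Set against the peaks closest to them in width, the 98 bp peaks differed in close neighbours by less than the counting error. Among the 1186 peaks from 99 to 109 bp, 20.6% had a neighbour within 1 kb, and the difference of -1.11 percentage points had an interval from -4.14 to 1.87. The share was 25.0% at 110 to 119 bp, 23.8% at 120 to 149 bp, 25.3% at 150 to 199 bp, 26.8% at 200 to 299 bp and 29.8% at 300 to 499 bp. It was 32.5% (Wilson 95% interval 27.1 to 38.3%) among the 268 peaks of 500 bp or more. The median gap went from 14.0 kb at 98 bp and 12.9 kb at 99 to 109 bp down to 6.24 kb in that widest band. The interval around -1.11 still allows a share several points lower, or up to 1.87 points higher, than at 99 to 109 bp.

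**Figure D3:**
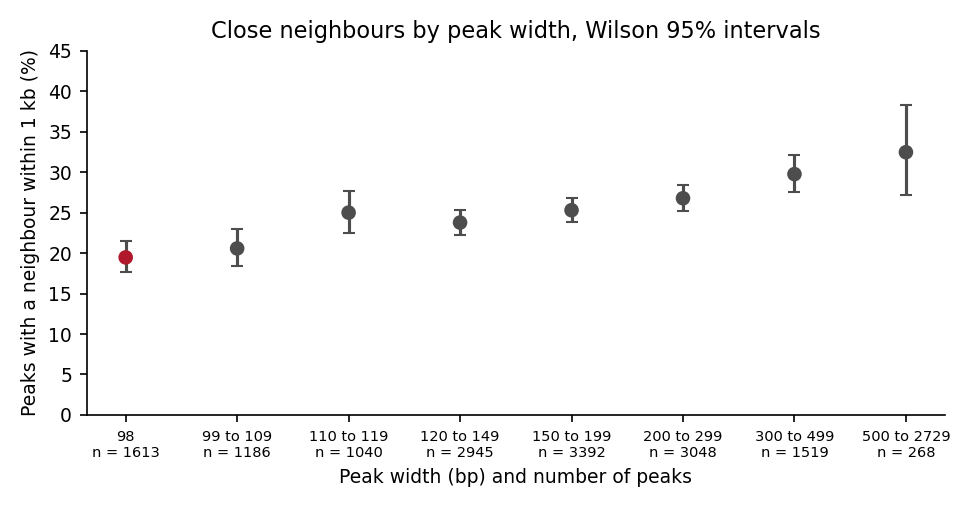
Share of peaks with another listed peak within 1 kb in percent (vertical axis, bars are Wilson 95% intervals) in bands of peak width in bp (horizontal axis, number of peaks below each band), with the 98 bp peaks in red. The 98 bp peaks stand at 19.5% and the band from 99 to 109 bp at 20.6%, and the widest band stands at 32.5%.

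Read the other way, the 98 bp peaks made up a different part of the list at different gaps. They were 9.58% of the peaks with a gap of at most 200 bp (157 of 1638), 7.95% of those above 200 and up to 500 bp (105 of 1320) and 6.73% of those above 500 bp and up to 1 kb (52 of 773). From 1 to 10 kb they were 10.7%, from 10 to 100 kb 11.4%, and beyond 100 kb 13.5% (Wilson 95% interval 12.0 to 15.1%). The intervals of the 3 shortest bands overlapped, at 8.25 to 11.1%, 6.61 to 9.54% and 5.17 to 8.72%, and no order among them was tested.

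Local density, the number of other peaks centred within 500 kb on either side, was nearly the same for both classes. The 98 bp peaks had a median of 15 such peaks and a mean of 19.7 ± 17.0 (SD over peaks), and the wider peaks a median of 16 and a mean of 20.6 ± 17.3. The highest count was 101 in each class. Among the 314 listed peaks with no other peak in this range, 46 or 14.6% (Wilson 95% interval 11.2 to 18.99%) measured 98 bp. Where 40 or more other peaks lay in range, the share was 207 of 2059 or 10.1% (8.83 to 11.4%).

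Within bands of local density the distance between the classes, in percentage points, was widest where peaks were dense. Close neighbours were also commonest there in both classes, and the count of peaks in range includes the close neighbour itself. With 40 or more other peaks in range, 28.5% of the 98 bp peaks and 39.0% of the wider peaks had a neighbour within 1 kb. With 20 to 39 the shares were 21.7% and 29.8%, with 10 to 19 they were 19.6% and 25.6%, and with 5 to 9 they were 15.7% and 19.2%. In sparse surroundings, with 1 to 4 other peaks, the order was the opposite, at 15.4% of 208 peaks against 13.0% of 1580. Whether the difference between bands exceeds counting error was not tested.

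Across chromosomes the 98 bp peaks followed the whole list closely. Chromosome 11 held the most, 191 peaks or 1.57 per Mb, and chromosome 19 followed in density with 84 peaks or 1.37 per Mb. Chromosome 14 held the fewest of any autosome, 13 peaks or 0.104 per Mb. The densest autosome exceeded the sparsest 15.1-fold in 98 bp peaks and 17.3-fold in all listed peaks, on the same 2 chromosomes. Chromosomes 5, 8 and 11 together held 501 of the 98 bp peaks, 31.1% of them, and 32.4% of all listed peaks.

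As a share of the peaks on a chromosome, the 98 bp peaks ranged on the autosomes from 7.62% on chromosome 18 (26 of 341) to 16.3% on chromosome 12 (24 of 147). On 17 of 19 autosomes the Wilson 95% interval held the share of the whole list, 10.7%. The exceptions were chromosome 12 (11.2 to 23.1%) and chromosome 4 (119 of 922, 12.9%, interval 10.9 to 15.2%), both above it. These intervals carry no adjustment for the 21 chromosomes compared. Merging peaks within 1 kb and counting regions made up of 98 bp peaks alone brought both of these chromosomes back to the share of the list, within their intervals, and put chromosome 17 below it (50 of 657 regions, 7.61%, against 10.1%).

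**Figure D4:**
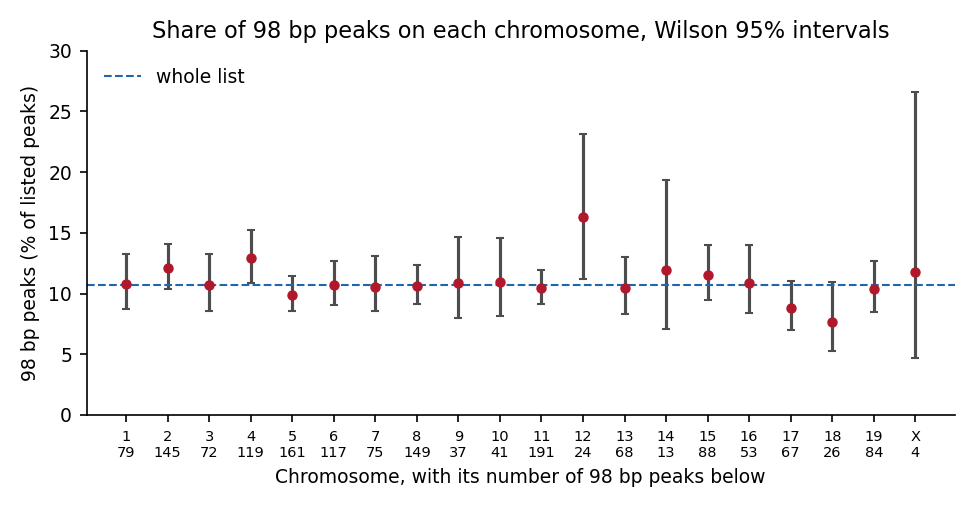
Peaks of 98 bp as a percentage of listed peaks (vertical axis, bars are Wilson 95% intervals) on each chromosome (horizontal axis, number of 98 bp peaks below), with the whole list at 10.7% as a dashed line. Most intervals cross the line; chromosome 12 at 16.3% and chromosome 4 at 12.9% lie above it, and chromosome Y, with no 98 bp peak among 3 listed, is not drawn.

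On chromosome 12, singled out after its share was seen, the 24 peaks were scattered over 16 windows of 1 Mb, and 9 of these windows held 1 each. The most in a window was 3 of 10 listed peaks, from 88000001 to 89000000. The window from 3000001 to 4000000 held 2 listed peaks, both of 98 bp. The median gap on chromosome 12 was 12.8 kb for the 98 bp peaks and 61.8 kb for the 123 wider peaks, the reverse of the order in the whole list. Quartiles of 3.18 and 144 kb against 5.26 and 283 kb show that the 2 classes overlapped widely there.

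The sex chromosomes held 4 of the 98 bp peaks, all on chromosome X, where 34 peaks were listed. Those starting at 130593614, 159267553 and 161418485 had no other listed peak within 500 kb, and their gaps were 2.98, 0.670 and 2.15 Mb. The last, starting at 166436206, had a neighbour 882 bp away and 7 other peaks within 500 kb. The wider peaks of chromosome X had a median gap of 251 kb and a median of 2 other peaks within 500 kb. Chromosome Y held 3 listed peaks and none of 98 bp, which at this number allows a share of up to 56.1% (upper Wilson limit).

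Compared within chromosomes, 98 bp peaks had the lower share of close neighbours on 14 of 19 autosomes and the larger median gap on 15 of 19. The median local density was lower on 8 autosomes, equal on 6 and higher on 5. Chromosome 6, singled out after its values were seen, had the largest difference among the autosomes in the share within 1 kb. There 11 of 117 peaks of 98 bp, or 9.40% (Wilson 95% interval 5.33 to 16.1%), had a neighbour within 1 kb, against 26.2% of 974 wider peaks (23.5 to 29.0%), a difference of -16.8 percentage points (Newcombe 95% interval -21.7 to -9.61). Its median gaps were 26.0 and 10.5 kb. In the same direction the medians of chromosome 3 (36.3 and 13.6 kb) and chromosome 14 (368 and 91.7 kb) were farther apart. Those of chromosome 18 (39.6 and 22.1 kb) were farther apart by difference in kb but not by ratio. On chromosome 12 (12.8 and 61.8 kb) the medians were farther apart in the opposite direction. On chromosome 8 the shares were 16.8% of 149 and 30.4% of 1256. Without chromosome 6 the difference over the list was -5.20 percentage points and the ratio of median gaps 1.27.

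**Figure D5:**
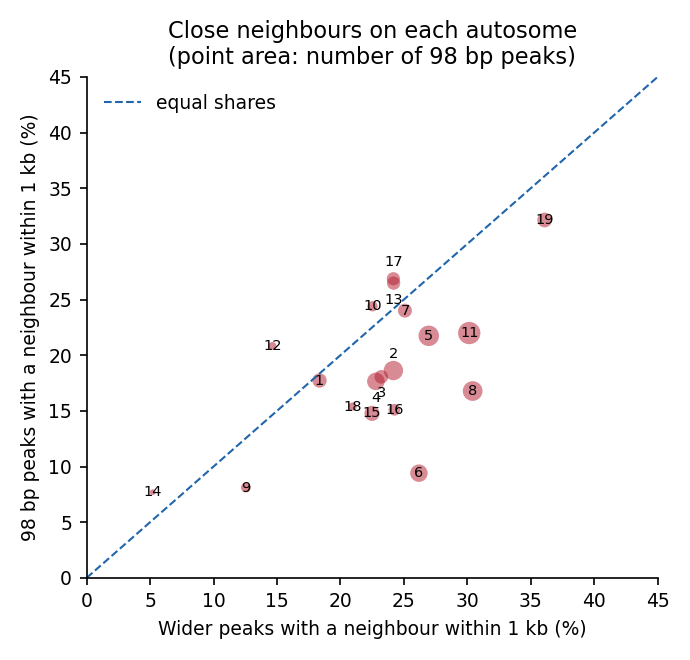
Share of 98 bp peaks (vertical axis) and of wider peaks (horizontal axis) with another listed peak within 1 kb, in percent, for each autosome, with point area in proportion to the number of 98 bp peaks and a dashed line at equal shares. Of 19 autosomes, 14 lie below the line, chromosome 6 farthest at 9.40% against 26.2%, and 5 lie above it.

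Chromosome 19 combined the smallest median gap from 98 bp peaks to any listed peak with a reversed order of medians. Its 84 peaks had a median gap of 2.98 kb, against 5.24 kb for its 726 wider peaks. Within 1 kb the order was not reversed, at 32.1% (Wilson 95% interval 23.1 to 42.7%) against 36.1% (32.7 to 39.6%). Chromosome 14 stood at the other end: its 13 peaks had a median gap of 368 kb, against 91.7 kb for 96 wider peaks, and 10 of the 13 had no neighbour within 100 kb, as did 48 of the 96 wider peaks. Within 1 kb, 1 of the 13 (7.69%, Wilson 95% interval 1.37 to 33.3%) and 5 of the 96 (5.21%, 2.24 to 11.6%) had a neighbour, so the shares there ran the other way within wide intervals.

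Windows of 1 Mb show where the 98 bp peaks were concentrated. A listed peak was present in 1774 windows and a 98 bp peak in 816 of them, of which 442 held a single one and 48 held 5 or more. In 47 of the 1774 windows every listed peak measured 98 bp, in a list where 10.7% of the peaks did. A window with 1 listed peak can be among them, as on chromosome 12 from 4000001 to 5000000. The count of 47 is therefore no measure of concentration. The window with the most was on chromosome 19 from 7000001 to 8000000, with 12 of 55 listed peaks or 21.8% (Wilson 95% interval 12.9 to 34.4%). It ranked first by 98 bp peaks and place 11 by all listed peaks.

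All 12 peaks of that window lay between 7038842 and 7492614. Their gaps ran from 159 bp to 11.8 kb, and 7 of the 12 had a neighbour within 1 kb, as did 26 of the 43 wider peaks of the window. Each had between 54 and 56 other listed peaks within 500 kb. In 2 cases a pair of neighbours were both 98 bp wide: the peaks starting at 7038842 and 7039610 lay 670 bp apart, and those starting at 7262138 and 7263617 lay 1381 bp apart.

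The second window was on chromosome 11 from 117000001 to 118000000, with 11 of 86 listed peaks (12.8%, interval 7.29 to 21.5%). A further 5 windows held 9 each. Chromosome 11 held 2 of them, from 102000001 to 103000000 (of 53 listed peaks) and 116000001 to 117000000 (of 59). The others were on chromosome 10 from 80000001 to 81000000 (of 59), chromosome 17 from 35000001 to 36000000 (of 52) and chromosome 2 from 30000001 to 31000000 (of 38). The last had the highest share of the 7 windows, 23.7% (13.0 to 39.2%).

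In the 195 windows with at least 20 listed peaks the median share of 98 bp peaks was 9.68%, with quartiles of 5.59 and 14.3%. The highest share, 6 of 23 or 26.1% (Wilson 95% interval 12.5 to 46.5%), occurred in 2 windows, that of chromosome 13 running from 51000001 to 52000000 and that of chromosome 2 from 173000001 to 174000000. At the other end, 10 of the 195 windows held no 98 bp peak. The best filled of these was on chromosome 8 from 11000001 to 12000000, with 0 of 29 (upper limit 11.7%). In 7 of the 195 windows the interval left out 10.7%, 6 above it and 1 below, without adjustment for the number of windows. A window with 29 or fewer listed peaks could not fall below, because even 0 of 29 has an upper limit of 11.7%. The split between above and below therefore carries no information on an excess of either kind.

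Most 98 bp peaks had a wider peak as their nearest neighbour. The gap from one to the nearest other 98 bp peak had a median of 174 kb (95% interval from order statistics 157 to 197 kb), and 34 of 1613, or 2.11%, had another within 1 kb. This gap cannot be shorter than that to any listed peak, and no expected spacing for 10.7% of the list was computed. The 34 were 10.8% of the 314 with any listed peak within 1 kb, near the 10.7%. The nearest listed peak was itself 98 bp wide for 203 of the 1613, or 12.6% (Wilson 95% interval 11.1 to 14.3%), against 10.4% of the wider peaks (9.88 to 10.9%). Over the whole list 10.7% of the peaks measured 98 bp. These intervals did not overlap. They take each peak as independent, although 2 neighbouring 98 bp peaks can count each other, so their separation is no test. For neighbours within 1 kb the shares with a 98 bp nearest peak were 10.8% (7.85 to 14.8%) and 8.81% (7.90 to 9.81%), and the intervals overlapped. The median width of the nearest peak was 153 bp beside a 98 bp peak and 160 bp beside a wider one.

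Consecutive 98 bp peaks along a chromosome came singly in 1248 of 1420 runs, or 87.9%, in a list where 89.3% of the peaks were wider. There were 152 runs of 2, 19 of 3 and 1 of 4. The run of 4 spanned 357 kb on chromosome 4, from 32919202 to 33276102. Its peaks started at 32919202, 33037887, 33070486 and 33276005, and their gaps to the nearest listed peak were 10.3, 32.5, 32.5 and 53.6 kb. The run thus held no close pair.

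The closest pair of 98 bp peaks was on chromosome 15, where the peaks from 12134990 to 12135087 and from 12135184 to 12135281 lay 96 bp apart. The next was on chromosome 1, at 95651279 to 95651376 and 95651476 to 95651573, 99 bp apart. On chromosome 13 the peaks starting at 16633917 and 16634134 lay 119 bp apart, and each had 2 other listed peaks within 500 kb, its partner included. The shortest gap to a peak of any width, 76 bp, occurred 16 times in the list, each time with a peak on either side. It was reached by 3 peaks of 98 bp, in a list where 10.7% of the peaks had that width. The one on chromosome 17 from 35949801 to 35949898 lay beside a peak of 624 bp, the one on chromosome 5 from 20207872 to 20207969 beside one of 100 bp, and the one on chromosome 9 from 14466960 to 14467057 beside one of 118 bp.

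Chains were formed by linking peaks with gaps of at most 1 kb. Peaks of 98 bp made up 11.5% of the peaks outside any chain (1299 of 11280, Wilson 95% interval 10.9 to 12.1%), 8.27% of those in pairs (225 of 2722, 7.29 to 9.36%) and 8.82% of those in chains of 3 or more (89 of 1009, 7.22 to 10.7%). Of 1361 pairs, 199 held 1 peak of 98 bp and 13 held 2. Of 292 longer chains, 84 held at least 1, 5 held 2 and none held more. Within the longer chains they were 7.53% of the end peaks (44 of 584, 5.66 to 9.96%) and 10.6% of the inner peaks (45 of 425, 8.01 to 13.9%), with overlapping intervals.

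The 5 chains with 2 peaks of 98 bp show how they sit beside wider ones. On chromosome 13 from 36209092 to 36210088 a peak of 313 bp was followed by both 98 bp peaks, across gaps of 331 and 157 bp. On chromosome 3 from 137527013 to 137528212 the order was the same, with a first peak of 271 bp. On chromosome 7 from 75095900 to 75096737 both 98 bp peaks came first and a peak of 227 bp last, and on chromosome 17 from 35974042 to 35975254 they were followed by one of 107 bp. The longest, on chromosome 8 from 74102849 to 74105445, held 6 peaks, of which the second and the last measured 98 bp and the others 128, 359, 127 and 226 bp. Both narrow peaks were thus neighbours in 4 of the 5 chains.

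The most isolated 98 bp peak was on chromosome 14 from 117324411 to 117324508, 3.38 Mb from the nearest listed peak. It was followed by the peaks on chromosome X starting at 130593614 and 161418485, named above. In these 3 cases the nearest listed peak measured 110, 321 and 98 bp. The most isolated peak of the whole list was a wider one, with a gap of 31.4 Mb.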

How the data were processed

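The series holds 2 c-FOS ChIP samples and 1 input, grouped by their titles. Reads were aligned with Bowtie2 to mm9 and peaks called with MACS2, per the submitters' processing notes; their versions, the threshold, the role of the input and the pooling of samples are not stated there. The values are peak positions that the authors deposited in 1 list of 3 columns (chromosome, start, end), with no score; depth is unknown. Start was read as counted from 0, and coordinates are printed 1-based on mm9. Of the peaks, 0 ran past the end of an mm9 chromosome and 55 past an mm10 one (lengths from GenomeInfoDb 1.38.1, R 4.3.3).

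Widths, gaps and local counts were computed in pandas 2.3.3 (Python 3.11.15, scipy 1.17.1, numpy 2.4.6), tested on simulated data, and drawn with matplotlib 3.10.9. Peaks are not replicates, so no p-value was computed. Windows count a peak by its start. The members and the measures were chosen with earlier results of these data known. Most named items follow a written rule: the 5 windows with the most 98 bp peaks with ties, the extreme shares in windows of at least 20 peaks, the longest runs, the closest pairs, the 3 most isolated peaks, and X and Y. The single autosomes, the chains with the most 98 bp peaks and the 98 bp peaks closest to a peak of any width fall outside that rule. Those were picked by their values. Alternatives were other comparison widths, gap limits, radii, merging, and chromosomes left out. Sequence motifs and gene starts were not analysed here, because the reference tables at hand were for GRCm38.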

Additional observations from a re-analysis of the deposited data

How the results depend on the processing

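With 1 list, no score and no replicate column, a stricter threshold and leaving out replicates were not run, and the motif and gene-start alternatives were not run for want of an mm9 sequence. No paired analysis was possible because the list names no replicate and the ChIP samples form a single group. The lower share of 98 bp peaks with a close neighbour kept its sign in all 13 alternatives run. It stayed within the interval of -8.04 to -3.90 percentage points in 11 of them, and was -3.88 for gaps of at most 500 bp and -3.38 for gaps of at most 100 kb, where the quantity itself differs. It was -3.99 against peaks from 99 bp to the median width, -7.65 against peaks above the median, -4.73 from centre to centre, -5.87 within chromosomes and -5.41 within bands of local density, the last chosen after seeing the data. Leaving out each chromosome gave -6.43 to -5.20. The ratio of median gaps stayed above 1 in all 10 alternatives, from 1.25 against peaks up to the median width to 1.47 against those above it. The comparison with the 99 to 109 bp peaks alone, the closest in width, is not among these alternatives. There both differences were smaller. The share within 1 kb differed by -1.11 percentage points (interval -4.14 to 1.87), and the ratio of median gaps was 1.09. The difference in median local density, -1 in the full list, lay between -2 and 0 in its 10 alternatives, and was 0 within 50 kb and within 5 Mb. The number of chromosomes whose interval left out the share of the list was 2, and 1 after merging within 1 kb; with widths up to 103 bp counted as members it was 3 (chromosomes 2, 12 and X), and chromosome 4 was no longer among them.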
